A study of Homo sapiens with 6 samples.

Results

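Inflammatory cytokine genes and the feedback genes of the NF-kB pathway were followed through 10 probes for 9 genes, out of 48803 probes on the array. The probes were chosen by identifier. They comprised 4 chemokine genes (IL8, with 2 probes, CXCL1, CXCL2 and CCL2), 3 cytokine genes (IL6, IL1A and IL1B) and 2 genes whose products switch NF-kB off again (TNFAIP3 and NFKBIA). The deposited table gives no gene names, so the names rest on the list of identifiers and were not checked against the table. The cells were H1299, an established human lung carcinoma line that the labels call lung adenocarcinoma. Stable transfection with Lin-28B gave 2 clones, which have 1 control line, and stable transfection with Ago2 gave another 2 clones, again with 1 control line; each line was growing exponentially and was hybridized to 1 array. Each transfected line is 1 clone. The labels do not say what the controls carry or whether arrays stand for separate cultures, so the spread behind the p-values, which is that between these arrays, may be partly technical. LIN28B and AGO2 themselves, and the markers of lung and other cell types, were not analysed here.

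NF-kB is a family of transcription factors held in the cytoplasm by inhibitor proteins. Signals such as tumour necrosis factor or interleukin-1 lead to destruction of the inhibitor, NF-kB enters the nucleus, and it switches on cytokine genes together with the genes of its own inhibitors, which closes a feedback loop. LIN28B blocks maturation of the let-7 microRNAs, AGO2 carries microRNAs in the silencing complex, and IL6 mRNA has been described as a let-7 target, which is what makes these genes of interest in such cells.

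NF-kB acts through short DNA motifs, many of them in promoters, and 4 promoters are shown because they belong to the genes whose values are described first below. RefSeq promoter sequence was at hand for 8 of the 9 genes and was matched by gene. Each window is the 250 bases before a start given in the RefSeq promoter table, read 5′ to 3′ on the gene's strand. For TNFAIP3 this start lies inside the annotated gene, which runs from 137866349 to 137883312 on chromosome 6, so its window does not adjoin the gene's outer edge. Its coordinates in GRCh38.p14 are chr14:35404750-35404999 on the minus strand for NFKBIA, chr6:137867009-137867258 on the plus strand for TNFAIP3, chr4:74099196-74099445 on the minus strand for CXCL2, and chr4:73740319-73740568 on the plus strand for IL8, which RefSeq names CXCL8. Capitals mark matches to NF-kB motifs.
NFKBIA: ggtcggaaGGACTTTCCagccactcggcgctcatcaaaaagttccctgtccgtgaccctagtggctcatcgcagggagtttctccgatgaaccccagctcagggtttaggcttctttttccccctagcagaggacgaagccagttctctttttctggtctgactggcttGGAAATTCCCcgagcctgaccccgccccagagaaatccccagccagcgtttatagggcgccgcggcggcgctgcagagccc
TNFAIP3: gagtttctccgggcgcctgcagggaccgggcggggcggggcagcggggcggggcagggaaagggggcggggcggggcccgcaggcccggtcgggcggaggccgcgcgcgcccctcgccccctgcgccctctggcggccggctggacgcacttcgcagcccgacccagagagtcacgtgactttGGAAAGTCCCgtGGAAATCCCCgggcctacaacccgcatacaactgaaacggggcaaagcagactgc
CXCL2: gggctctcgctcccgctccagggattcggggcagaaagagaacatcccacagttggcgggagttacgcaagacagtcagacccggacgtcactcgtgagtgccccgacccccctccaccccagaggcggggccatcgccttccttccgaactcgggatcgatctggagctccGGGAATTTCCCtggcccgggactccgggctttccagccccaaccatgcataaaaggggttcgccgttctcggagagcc
IL8: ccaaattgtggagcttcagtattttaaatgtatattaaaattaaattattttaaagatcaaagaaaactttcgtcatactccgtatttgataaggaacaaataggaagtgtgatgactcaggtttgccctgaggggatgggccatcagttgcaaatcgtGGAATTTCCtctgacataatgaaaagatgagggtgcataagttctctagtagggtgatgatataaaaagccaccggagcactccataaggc

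Both strands were searched for the kappaB consensus, a degenerate motif of 10 letters, for a shorter NF-kB form, GGANNTTCC, and for the AP-1 motif TGANTCA. The first motif and the shorter form can overlap, and their matches were merged in the capitals above. The consensus matched in 5 of the 8 genes, NFKBIA, TNFAIP3, CXCL1, CXCL2 and IL6, and in 5.21% of all 35116 promoter windows. GGANNTTCC matched in 6 genes, these 5 and IL8, and in 3.84% of all windows. In the IL8 window it read GGAATTTCC, 91 to 83 bases before the start. TNFAIP3 held 2 neighbouring consensus matches, and NFKBIA held a second GGANNTTCC match far upstream, 242 to 234 bases before its start. TGANTCA matched in IL8 and IL1A and in 6.57% of all windows. The windows of CXCL1 and CXCL2, genes of 1 chemokine family on chromosome 4, aligned with 197 identical bases, 27 differences and 52 gap positions. A match describes these letters and shows no binding, and the arrays measured none.

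**Figure D1:**
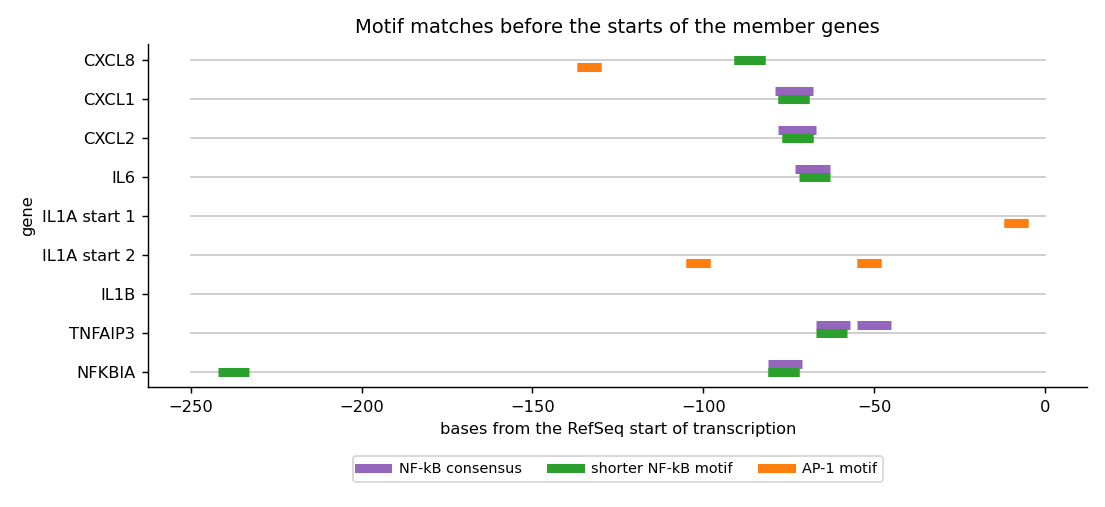
Matches to the NF-kB consensus, the shorter NF-kB motif and the AP-1 motif in the 250 bases before each annotated start (x axis, bases from the start) of 8 member genes (rows, IL1A with 2 annotated starts). NF-kB motifs lie in the 100 bases before the start in 6 genes, and NFKBIA has a further match near the far end of its window.

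Of the 10 probes, only that of NFKBIA was bright on all 6 arrays, and most cytokine probes lay at the level of the array background. The deposited values have no detection calls, so each array's median intensity, between 61.7 and 67.04, served as a yardstick. It gives the position of a probe on its array, not the abundance of a transcript. The 8 chemokine and cytokine probes gave 48 values between 52.4 and 132, of which 20 lay above the array's median. The probes of IL6, IL1A, IL1B and CCL2 were above the median on at most 1 array each and were not tested. The other 6 probes passed that filter, as did 28035 probes of the whole array (57.4%). A probe near background cannot show a decrease of its transcript, and a low level was not told apart from none.

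**Figure D2:**
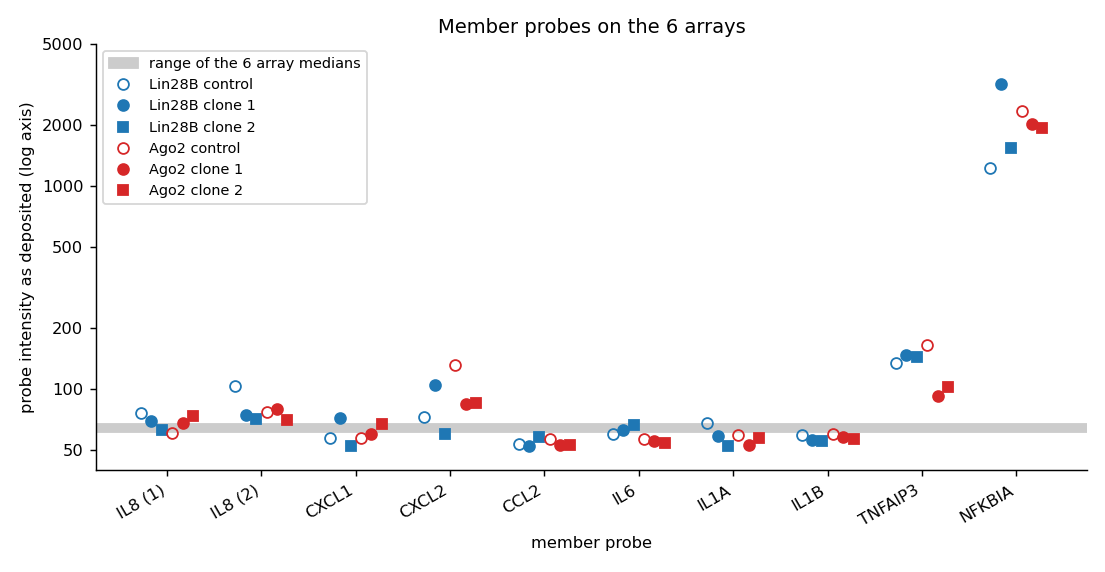
Deposited intensity (y axis, log scale) of the 10 member probes (x axis; IL8 (1) is ILMN_1666733 and IL8 (2) is ILMN_2184373) on each of the 6 arrays; the grey band spans the 6 array medians, 61.7 to 67.04. NFKBIA lies between 1221 and 3170.0, TNFAIP3 between 92.1 and 164, and the other 8 probes between 52.4 and 132.

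NFKBIA encodes IkB-alpha, the inhibitor that holds NF-kB in the cytoplasm and is itself an NF-kB target. Its probe, ILMN_1773154, measured 1221 in the Lin28B control, 3170.0 and 1533 in Lin28B clones 1 and 2, 2351 in the Ago2 control, and 2015 and 1924 in Ago2 clones 1 and 2. These values exceeded those of 95.2% to 97.8% of the probes on their arrays. Lin28B clone 1 was the highest array and the Lin28B control the lowest. The Lin28B clones differed from each other 2.07-fold and enclosed all 3 arrays of the Ago2 lines, whereas the Ago2 clones differed 1.05-fold. In order of level, the Lin28B clones averaged 2352 ± 1157 (SD, n = 2), the Ago2 control measured 2351, the Ago2 clones averaged 1969.6 ± 64.6 (SD, n = 2) and the Lin28B control measured 1221. The mean of the Lin28B clones minus or plus 1 SD took in the levels of the other groups. The place of the Lin28B clones in this order is therefore not separated from the spread between them. Both controls lay outside 1 SD of the Ago2 clones, but an SD from 2 clones does not show that the controls stand apart. The fitted log2 change of the Ago2 clones against their control was -0.20 (95% interval -1.26 to 0.87). Averaged as normalized log2 values instead of intensities, Lin28B clones minus Ago2 control was -0.060. The top of the order therefore depended on how the Lin28B clones were averaged.

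TNFAIP3 encodes a ubiquitin-editing enzyme that shuts down signalling towards NF-kB and is induced by NF-kB. Its probe, ILMN_1702691, measured 135 in the Lin28B control, 147 and 145 in Lin28B clones 1 and 2, 164 in the Ago2 control, and 92.1 and 102 in Ago2 clones 1 and 2. Both Ago2 clones were lower than all 4 other arrays, and the Ago2 control was the highest. After normalization, both Ago2 clones lay on 1 side of their control for 73.8% of the 28035 probes that passed the filter. The Lin28B and Ago2 clones did not overlap for 35.6% of these probes. The share of probes with both Ago2 clones beyond all 4 other arrays was not computed. The clones of each transfection lay close together, at 146 ± 1.8 (SD, n = 2) for Lin28B and 97.2 ± 7.1 (SD, n = 2) for Ago2. All 6 values were 1.49 to 2.45 times their array's median, so background makes up a large part of each.

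The chemokines attract leukocytes, IL8, CXCL1 and CXCL2 mainly neutrophils and CCL2 mainly monocytes. CXCL2, probe ILMN_1682636, measured 73.3 in the Lin28B control, 105 and 60.4 in Lin28B clones 1 and 2, 132 in the Ago2 control, and 84.3 and 85.9 in Ago2 clones 1 and 2. The Ago2 control was the highest array and Lin28B clone 2 the lowest, below its array's median. The Lin28B clones differed 1.73-fold and enclosed their own control and both Ago2 clones. IL8 was read by a pair of probes. ILMN_1666733 measured 76.2 in the Lin28B control, 69.9 and 63.2 in its clones, 61.0 in the Ago2 control, and 68.3 and 73.6 in its clones. ILMN_2184373 measured 104 in the Lin28B control, 74.7 and 71.2 in its clones, 76.9 in the Ago2 control, and 79.7 and 70.3 in its clones. Both probes were highest in the Lin28B control and lower in its clones. For 79.9% of all probes that passed the filter, both Lin28B clones lay on 1 side of their control after normalization. This held for 4 of the 6 members that passed. The IL8 probes ordered the Ago2 arrays differently, with both clones above the control for the first probe and the control between the clones for the second. CXCL1, probe ILMN_1787897, measured 57.6 in the Lin28B control, 72.0 and 52.4 in its clones, 57.7 in the Ago2 control, and 59.9 and 67.0 in its clones. It was above the array median only in Lin28B clone 1 and Ago2 clone 2. CCL2, probe ILMN_1720048, ranged from 52.4 to 58.5 and never exceeded the median of its array.

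**Figure D3:**
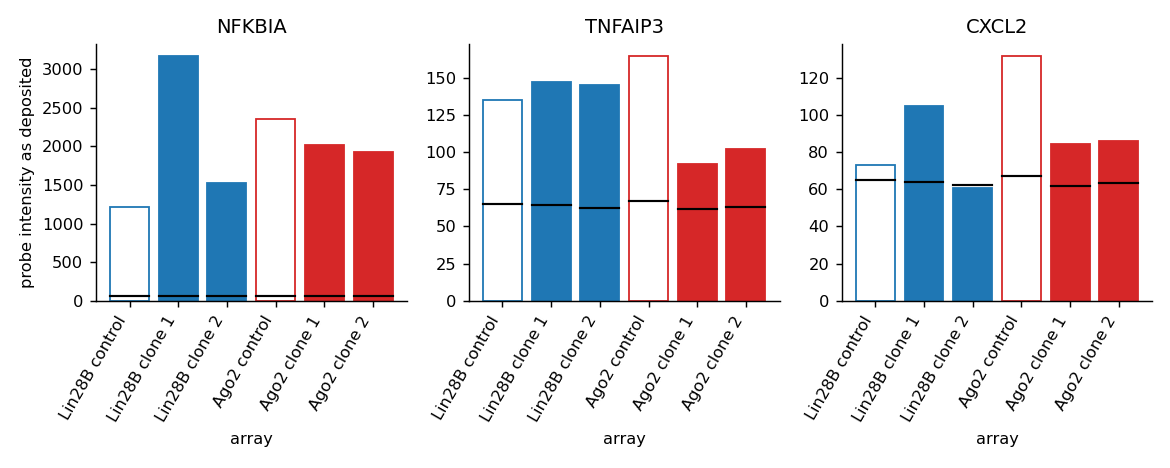
Deposited intensity (y axis, linear from 0, a separate scale per panel) of the probes of NFKBIA, TNFAIP3 and CXCL2 on the 6 arrays (x axis, 1 bar per array, open bars for controls); the black line on each bar is that array's median. TNFAIP3 is lowest in both Ago2 clones (92.1 and 102), NFKBIA is highest in Lin28B clone 1 (3170.0), and CXCL2 is highest in the Ago2 control (132).

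Interleukin-6 is a cytokine that signals through STAT3, and interleukin-1 alpha and beta are cytokines that activate NF-kB in the cells they reach. IL6, probe ILMN_1699651, measured 60.04 in the Lin28B control, 62.9 and 66.3 in its clones, 57.0 in the Ago2 control, and 55.5 and 54.4 in its clones. Only the value of Lin28B clone 2 was above its array's median. After normalization both Ago2 clones lay above their control instead of below it, by 0.072 and 0.023 on the log2 scale. IL1A, probe ILMN_1658483, ranged from 52.8 in Lin28B clone 2 to 67.9 in the Lin28B control, and only the latter exceeded its median. IL1B, probe ILMN_1775501, ranged from 55.7 to 60.3, below the median on every array. Over the 6 arrays the log2 values of the 4 probes not tested spanned 0.083 to 0.22, and at this level differences between the lines could not be resolved.

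The first comparison set the Lin28B clones against their control, which asks how cytokine and feedback mRNAs differ where LIN28B was introduced. None of the 6 tested member probes was called (0 of 6, limma with Benjamini-Hochberg adjustment at 0.05), where 1.65% of all kept probes were. At an unadjusted threshold of 0.05, 1 of the 6 passed, where 19.5% of all kept probes did. That probe was ILMN_2184373 for IL8, with a log2 change of -0.34 (95% interval -0.63 to -0.048, adjusted p = 0.200) on the log2(intensity + 32) scale, which understates changes of dim probes. The other IL8 probe gave -0.12 (95% interval -0.39 to 0.16). NFKBIA gave 0.65 (95% interval -0.41 to 1.71, adjusted p = 0.473), from 1.13 in clone 1 and 0.17 in clone 2. TNFAIP3 gave 0.13 (95% interval -0.15 to 0.42), CXCL2 gave 0.12 (-0.53 to 0.78) and CXCL1 gave 0.074 (-0.34 to 0.49). No member differed from the control by 2-fold or more with both clones on the same side (0 of 6), where 2.55% of all kept probes were. Without Lin28B clone 2, when only clone 1 has to pass, this count was 1, which was NFKBIA, and the share of all kept probes was 4.64%. The median change of the 6 members was 0.099, beside 0.016 over all kept probes.

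The second comparison set the Ago2 clones against their control. None of the 6 members was called (0 of 6 in limma), and 0% of all kept probes were. At an unadjusted threshold of 0.05, 1 of the 6 passed, where 15.1% of all kept probes did, and it was TNFAIP3. Its log2 change was -0.67 (95% interval -0.95 to -0.38, adjusted p = 0.115), a 1.59-fold lower value that was -0.72 in clone 1 and -0.61 in clone 2. With the 5th percentile of each array subtracted beforehand the change of TNFAIP3 was -0.99 (adjusted p = 0.0851). That setting was chosen after seeing the data, and it called 0.656% of all kept probes in limma. CXCL2 gave -0.54 (95% interval -1.20 to 0.12, adjusted p = 0.423), with -0.54 and -0.53 in the clones, and -0.85 after the same subtraction. NFKBIA gave -0.20 (95% interval -1.26 to 0.87). The model pools the spread of both clone pairs, so these intervals do not show the spread of the Ago2 clones alone. The Lin28B clones differed 1.73-fold for CXCL2 and 2.07-fold for NFKBIA, and the Ago2 clones 1.02-fold and 1.05-fold. The IL8 probes gave 0.21 (-0.059 to 0.49) and 0.0063 (-0.29 to 0.30), and CXCL1 gave 0.17 (-0.25 to 0.58). No member was at least 2-fold from the control in both clones (0 of 6), where 1.24% of all kept probes were. The median change of the 6 members was -0.095, beside -0.0081 over all kept probes.

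**Figure D4:**
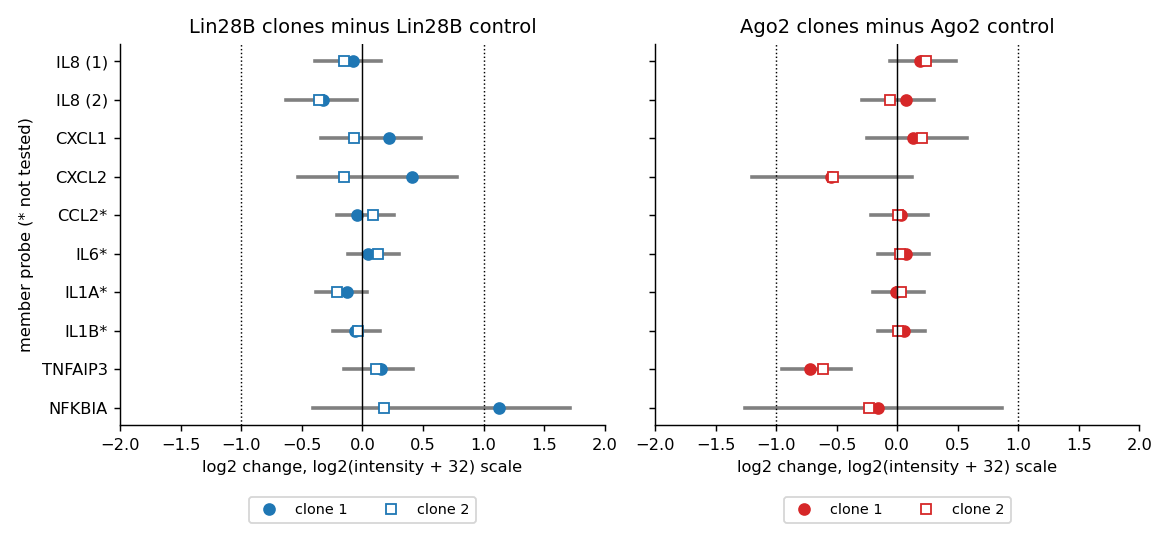
Log2 change (x axis, log2(intensity + 32) scale) of each member probe (rows) for clone 1 and clone 2 against their own control, Lin28B at left and Ago2 at right; grey bars are limma's 95% intervals of the mean change, dotted lines mark 2-fold, and asterisks mark probes that were not tested, whose intervals come from a fit over all probes. TNFAIP3 in the Ago2 clones lies at -0.72 and -0.61, and NFKBIA in Lin28B clone 1 lies at 1.13.

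Each control was 1 array, and the controls lay far apart: the SD over kept probes of the log2 difference was 0.548 for the pair of controls, 0.214 for the pair of Lin28B clones and 0.295 for the pair of Ago2 clones. Between the controls, 0 of 6 members were called in limma, where 5.97% of all kept probes were, and 0 of 6 passed an unadjusted 0.05. Lin28B control minus Ago2 control was -0.71 for NFKBIA, -0.70 for CXCL2, -0.32 for TNFAIP3, 0.26 and 0.32 for the IL8 probes and 0.051 for CXCL1. Against the other transfection's control, several changes turned sign. NFKBIA was then -0.060 in the Lin28B clones and 0.52 in the Ago2 clones, and CXCL2 was -0.58 and 0.16. TNFAIP3 was -0.19 in the Lin28B clones, against 0.13 with their own control, but it stayed negative in the Ago2 clones at -0.35 (adjusted p = 0.215). For TNFAIP3 both Ago2 clones lay below either control, which differed 1.25-fold from each other. Both Ago2 clones were on 1 side of their own control for 73.8% of all kept probes, and the share on 1 side of either control was not computed. A difference between a transfection and its single control array cannot be told apart from a control that stands apart.

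**Figure D5:**
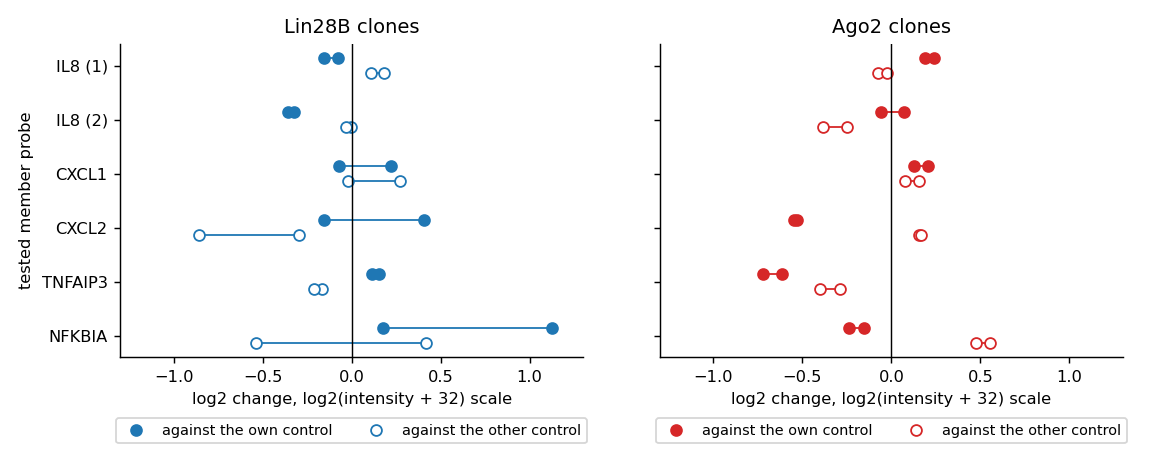
Log2 change (x axis, log2(intensity + 32) scale) of the 6 tested member probes (rows) in the 2 Lin28B clones (left) and the 2 Ago2 clones (right), joined by a line, against their own control (filled) and against the other transfection's control (open). In the Ago2 clones TNFAIP3 is negative against both controls, while NFKBIA and CXCL2 change sign with the control.

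The clones were also compared directly, without the controls. In limma 0 of 6 members were called between Lin28B clones and Ago2 clones, and 0% of all kept probes were. At an unadjusted threshold of 0.05, 1 of 6 members passed, where 6.96% of all kept probes did. It was TNFAIP3, higher in the Lin28B clones by 0.48 on the log2 scale (95% interval 0.25 to 0.71, adjusted p = 0.582). The other 5 differed by at most 0.14 in size, and the interval of NFKBIA, -0.73 to 1.00, leaves room for changes near 2-fold. The difference between both effects, each against its own control, called 0 of 6 members, where 3.81% of all kept probes were called. At an unadjusted threshold of 0.05, 1 of 6 passed and 22.1% of all kept probes did. TNFAIP3 came nearest, at 0.80 (95% interval 0.40 to 1.21, adjusted p = 0.0668), and without Ago2 clone 2 it was 0.86 with an adjusted p of 0.04998, just past the threshold, in a setting that called 10.3% of all kept probes. NFKBIA gave 0.85 (95% interval -0.65 to 2.35, adjusted p = 0.478). This difference contains both single control arrays. For TNFAIP3 it is the 0.48 between the clones minus the -0.32 between the controls, so the controls add to it.

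Across all 6 arrays, the log2 values of the 6 tested members spanned a median range of 0.55, beside 0.37 over all kept probes. The ranges were 1.13 for NFKBIA, 0.86 for CXCL2, 0.72 for TNFAIP3, 0.38 and 0.26 for the IL8 probes and 0.29 for CXCL1. The members did not share an order of arrays: the Lin28B control was lowest for NFKBIA and highest for both IL8 probes, and the Ago2 control was highest for TNFAIP3 and CXCL2. Of the feedback genes, NFKBIA varied most among the Lin28B lines and TNFAIP3 most among the Ago2 lines, as described above and with no test of that contrast.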

How the data were processed

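The 6 arrays were Illumina human HT-12 BeadChips, 1 per cell line. The authors deposited linear probe intensities. How these were scanned, background-corrected and normalized is not given in the sources used here; detection calls were not used, and a background level remains in the values. After a floor of 1, the log2(intensity + 32) values were quantile normalized between arrays. A probe was kept if 2 or more of the 6 arrays had it above the array median. A linear model of the 4 groups was fitted to the 6 arrays with limma 3.58.1 (R 4.3.3), using empirical Bayes moderation, 2 residual and 2.54 prior degrees of freedom, and Benjamini-Hochberg adjustment over the kept probes at a threshold of 0.05. The residual spread comes only from the clone pairs, and a control array was assumed to vary like them. A permutation of 2 clones against 1 control cannot go below an exact p of 0.333, so none was run. Alternatives changed the offset, filter, normalization, moderation, control, clone number as a block and the arrays used.

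The members and the planned gene lists were chosen with earlier results of these data known. Each member probe's gene name came with that choice. The deposited table pairs no probe with a gene, so the planned lists (pathway, marker and transfected genes) and the search for genes of like pattern were not analysed here. Every member is named. Promoter sequences and gene positions are from RefSeq (GRCh38.p14); the 9 gene names were matched to them by symbol or synonym, and motifs were searched in the 250 bases before each annotated start. The number of arrays, not a read depth, limits the precision.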

Additional observations from a re-analysis of the deposited data

How the results depend on the processing

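Under the alternatives tried, the number of member probes called was 0 in all comparisons, with one exception: it ranged from 0 to 1 for the difference between both effects when single clones were left out, the 1 being TNFAIP3 without Ago2 clone 2, where 10.3% of all kept probes were called (3.81% with all arrays). The number at least 2-fold from the control ranged from 0 to 1 for the Lin28B clones when single clones were left out, the 1 being NFKBIA without Lin28B clone 2, where 4.64% of all kept probes passed (2.55% with both clones). The change of TNFAIP3 in the Ago2 clones was negative under all 15 alternatives, from -0.99 to -0.35. In the settings that kept all arrays, its adjusted p in limma ranged from 0.0851 to 0.323. The change stayed at -0.67 with no filter, robust moderation, an intensity trend or either Lin28B clone left out. These settings cannot alter the estimate. The other settings reuse the same arrays, so the 15 signs are not independent checks. Member changes that turned sign were all short of the threshold. With the other control they were, for the Lin28B clones, 0.15 for IL8 ILMN_1666733, -0.58 for CXCL2, -0.19 for TNFAIP3 and -0.060 for NFKBIA, and, for the Ago2 clones, -0.048 and -0.32 for the IL8 probes, 0.16 for CXCL2 and 0.52 for NFKBIA. Leaving out single clones, the Lin28B effect ranged from -0.16 to 0.41 for CXCL2 and from -0.072 to 0.22 for CXCL1, and the Ago2 effect on IL8 ILMN_2184373 from -0.059 to 0.072. The direct clone difference ranged from -0.32 to 0.24 for CXCL2, -0.34 to 0.61 for NFKBIA, -0.19 to 0.10 for CXCL1 and -0.090 to 0.041 for IL8 ILMN_2184373, and the difference between both effects from -0.24 to 0.053 for CXCL1. The causes of these turns were not tested.

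Clone numbers only name clones, and same-numbered clones did not deviate together (correlation -0.204 over kept probes). With the clone number as a replicate block, 0 member probes were called in any comparison, and the Ago2 effect on NFKBIA was 0.063 in place of -0.20. With the numbers crossed, an alternative chosen after seeing the data, 0 were called as well, and the Ago2 effect was 0.022 for NFKBIA and -0.019 for IL8 ILMN_2184373. Subtraction of each array's 5th percentile was also chosen after seeing the data. Counts of calls over all probes moved far more: for the Lin28B comparison from 463 to 0 with an offset of 100 and to 2357 with either Ago2 clone left out, and for the Ago2 comparison from 0 to 161 with an intensity trend in the moderation. Signal near background limits the chemokine and cytokine probes.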
